A study of Mus musculus with 9 samples.

Results

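The miR-183, miR-96 and miR-182 cluster is a group of 3 microRNA (miRNA) hairpins, Mir183, Mir96 and Mir182, that lie close together on mouse chromosome 6. Its members here were chosen by name: mmu-miR-183-5p, mmu-miR-183-3p, mmu-miR-96-5p and mmu-miR-182-5p, 4 of the 1607 known mouse miRNA names counted in at least 1 library. All 4 were counted in every library and all 4 passed the filter on low counts, which left 955 miRNAs for testing. The data are small RNA sequencing of whole mouse kidneys at embryonic day 16.5, in 9 libraries. The 3 control libraries came from wild-type kidneys, 3 libraries from kidneys labelled with a DROSHA-E1147K transgene, and 3 from kidneys labelled DROSHA knockout. The series concerns what loss or mutation of DROSHA does to the developing kidney and whether it leads to Wilms tumor, a childhood kidney cancer. The labels speak of different mouse lines but do not name them, or give the cell types with altered DROSHA, and they do not say whether replicate libraries are separate animals. The p-values therefore speak only to the library-to-library spread, part or all of which may be technical.

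DROSHA, an RNase III enzyme of the nucleus, cuts miRNA hairpins out of long primary transcripts, and E1147K alters a residue of one of its RNase III domains. DICER then removes the loop, and one arm of the remaining duplex is kept in an Argonaute protein as the guide strand while the other, the passenger strand, is mostly lost. Hairpins of a cluster are released from a shared primary transcript, each by its own cut. The cluster is best known from sensory epithelia, the retina and the inner ear, where mutations in the seed of miR-96 cause hearing loss, and its guides repress FOXO transcription factors. A seed is the stretch of bases 2 to 8 from the 5′ end that pairs with target mRNAs.

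The hairpins are printed because each carries a guide arm and a passenger arm that were counted separately. They were taken from RefSeq (GRCm38.p6) and are written 5′ to 3′, with the 5p and 3p arms in capitals. All lie on the minus strand, Mir183 at chr6:30169668-30169737, Mir96 at chr6:30169446-30169551 and Mir182 at chr6:30165918-30165992.
Mir183: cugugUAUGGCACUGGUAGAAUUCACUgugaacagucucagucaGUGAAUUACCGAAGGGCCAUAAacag
Mir96: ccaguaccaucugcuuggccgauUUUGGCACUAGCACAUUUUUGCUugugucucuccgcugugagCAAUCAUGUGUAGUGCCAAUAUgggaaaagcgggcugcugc
Mir182: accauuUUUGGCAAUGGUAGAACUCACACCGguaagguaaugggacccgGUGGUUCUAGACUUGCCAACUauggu

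Mir183 and Mir96 are 116 bases apart and Mir182 follows 3453 bases further on, so that the cluster spans 3820 bases. All 3 hairpins lie inside the long non-coding RNA gene Mirc35hg, which spans chr6:30158640-30174125 on the same strand, between the protein-coding genes Nrf1 and Ube2h. GENCODE vM21 gives the hairpins the same coordinates. The loops between the arms are 17, 19 and 18 bases long for Mir183, Mir96 and Mir182, beside a median of 16 over 644 mouse hairpins with both arms annotated. The triplet UGU, searched on the RNA strand within the loop, is in 1 of the 3 (Mir96) and in 203 of the 644, or 31.5%.

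The mature members are printed to show how the seeds, in capitals, compare.
mmu-miR-183-5p: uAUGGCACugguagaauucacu
mmu-miR-96-5p: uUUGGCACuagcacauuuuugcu
mmu-miR-182-5p: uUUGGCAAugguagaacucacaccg
mmu-miR-183-3p: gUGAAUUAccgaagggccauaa
The 3 guides start alike without sharing a full seed. miR-96-5p and miR-182-5p share bases 2 to 7 and differ at the last seed base, so that 6 of 7 seed positions match. miR-183-5p matches 6 of 7 seed positions of miR-96-5p and 5 of 7 of miR-182-5p. Along the whole guide, without gaps, miR-183-5p and miR-182-5p match at 18 of 22 positions, miR-183-5p and miR-96-5p at 13 of 22, and miR-96-5p and miR-182-5p at 12 of 23. No member is identical to, or contained in, another of the 1679 mature mouse sequences of RefSeq. Among those sequences, 1 shares the full seed of a member: mmu-miR-1271-5p, with the seed of miR-96-5p, which has no row in any of the 9 files. Reads with mismatches may still be placed on a near relative, and the sources used here do not give the rule for such reads.

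Known miRNAs had 24350500 to 34896599 reads per library, or 74.7% to 81.9% of all counted reads. That share was 81.9%, 80.9% and 81.8% in controls, 78.4%, 76.9% and 79.1% with the transgene and 74.7%, 76.7% and 77.0% in the knockout. It was lower in every transgene and knockout library than in every control, and the cause was not tested. The members were well covered, with 26205 to 136211 reads per library for miR-183-5p, 19744 to 112814 for miR-182-5p, 9996 to 33771 for miR-96-5p and 475 to 1985 for miR-183-3p. Levels are reads per 1000000 miRNA reads (CPM), with library totals scaled by TMM, a method that assumes most miRNAs do not differ. A change shared by most miRNAs would therefore not show in the levels of the members. Read counts depend on how well each small RNA is ligated and copied, so the order of different miRNAs is an order of reads. Drosha mRNA is not measured by this assay, so it could not serve as a check of the genotypes. In 2 libraries, transgene 2 and knockout 2, miR-182-5p was low against the other members, and results that rest on it are also given without them further on. In whole kidneys, fewer cells of a type and less of an RNA per cell cannot be told apart.

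In wild-type kidneys the cluster ranked well inside the upper part of the miRNA population. miR-183-5p, the guide arm of Mir183, was at 2958 ± 1144 CPM (SD, n = 3) and ranked 44th to 69th of 955 miRNAs in the 3 controls. miR-182-5p, the guide arm of Mir182, was at 2837 ± 612 CPM and ranked 47th to 63rd. The order of these neighbours was not the same in all controls, and they did not differ beyond their spread. miR-96-5p, the guide arm of Mir96, followed at 802 ± 227 CPM and ranked 91st to 122nd, below both other guides in every library, with the smallest gap to miR-182-5p in transgene 2. miR-183-3p, the passenger arm of Mir183, was at 44.9 ± 16.0 CPM and ranked 285th to 340th. The guides of Mir183 and Mir182 together made up most of the cluster's reads, at 43.9% ± 3.47 and 43.4% ± 3.25 (SD, n = 3), and miR-96-5p made up 12.1% ± 0.561.

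**Figure D1:**
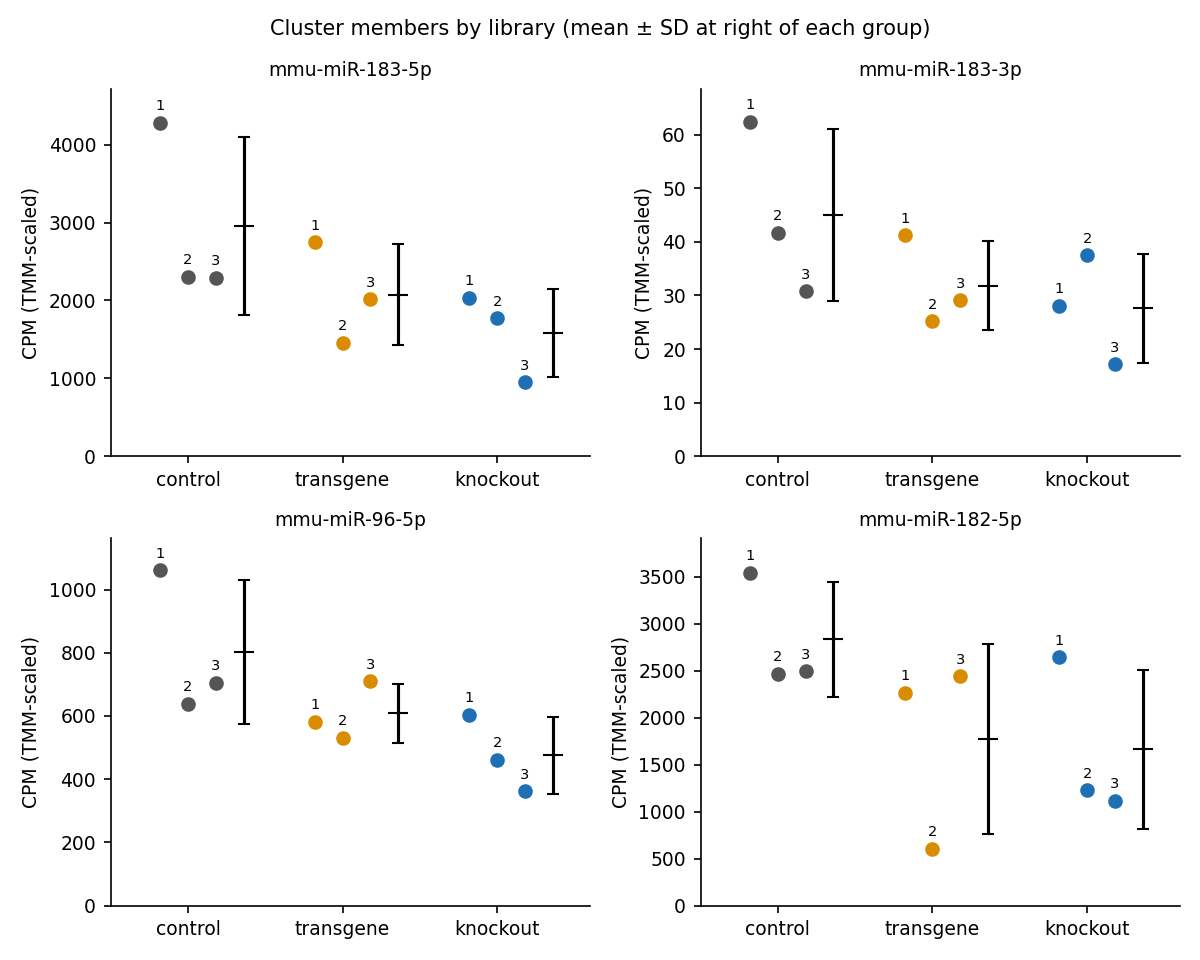
Level of each member in every library, as CPM scaled by TMM (vertical axis, from 0), for control, transgene and knockout kidneys. Points are libraries with their number and bars are mean ± SD of 3 libraries. Control 1 is the highest library for all 4 members and knockout 3 the lowest for all but miR-182-5p, which is lowest in transgene 2.

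miR-183-5p was counted at 4279, 2304 and 2293 CPM in controls 1, 2 and 3, at 2747, 1457 and 2016 CPM in the transgene libraries and at 2032, 1775 and 948 CPM in the knockout libraries. The knockout libraries all lay below the controls, and the transgene libraries overlapped with them. miR-183-3p, from the other arm of the same hairpin, was at 62.4, 41.7 and 30.8 CPM in controls, 41.2, 25.2 and 29.1 CPM with the transgene and 28.1, 37.5 and 17.2 CPM in the knockout. Its 3 groups overlapped, with control 1 above and knockout 3 below all others.

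miR-96-5p stood at 1061, 639 and 705 CPM in controls, 582, 532 and 711 CPM with the transgene and 604, 462 and 362 CPM in the knockout. As for miR-183-5p, the knockout libraries lay below all controls while transgene 3 lay among the controls. miR-182-5p was at 3544, 2471 and 2497 CPM in controls, 2269, 608 and 2445 CPM with the transgene and 2643, 1231 and 1119 CPM in the knockout. Here the transgene libraries lay below the controls, transgene 3 by a narrow margin, and knockout 1 lay among the controls. The plot of the members by library shows these values.

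Summed over the 4 members, the cluster was at 8946, 5456 and 5525 CPM in controls, 5639, 2622 and 5200 CPM with the transgene and 5308, 3506 and 2446 CPM in the knockout. The group means were 6642 ± 1995, 4487 ± 1630 and 3753 ± 1447 CPM (SD, n = 3 each). Control 1 stood apart from the other controls, which lay below transgene 1.

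Against controls, the transgene kidneys had lower mean levels of every member, and no member passed the test. The log2 fold changes of the edgeR fit were -0.51 (SE 0.38) for miR-183-5p, -0.50 (SE 0.38) for miR-183-3p, -0.40 (SE 0.28) for miR-96-5p and -0.68 (SE 0.52) for miR-182-5p. Their median was -0.50, beside -0.04 over all 955 miRNAs. Adjusted p-values from edgeR's quasi-likelihood test with Benjamini-Hochberg adjustment over all 955 were 0.628 to 0.642. Of the members 0 were called, where 0.0% of all miRNAs were called, and 0 members had an unadjusted p under 0.05, beside 84 of all 955. DESeq2 called 4 of all miRNAs and 0 members. The 3 transgene libraries lay below the 3 controls without overlap for 1 member, miR-182-5p, which 12.0% of all miRNAs also did.

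The size of these differences rested on single libraries. Without control 1, the highest for every member, the log2 fold changes were -0.18 for miR-183-5p, -0.22 for miR-183-3p, -0.18 for miR-96-5p and -0.51 for miR-182-5p. Without transgene 2 that of miR-182-5p was -0.20, and the others were -0.24 to -0.28.

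Knockout kidneys had the lowest mean of each member, and the differences from controls did not pass after adjustment. miR-183-5p had a log2 fold change of -0.90 (SE 0.38, edgeR adjusted p = 0.184) and miR-96-5p of -0.75 (SE 0.28, edgeR adjusted p = 0.168). The values were -0.70 (SE 0.38, edgeR adjusted p = 0.295) for miR-183-3p and -0.77 (SE 0.52, edgeR adjusted p = 0.398) for miR-182-5p. The median of the members was -0.76, beside -0.02 over all 955 miRNAs, of which between 9.42% and 14.1% had a lower fold change than a given member. Of the members 0 were called by edgeR, where 0.0% of all miRNAs were called, and 2 (miR-183-5p and miR-96-5p) had an unadjusted edgeR p under 0.05, at 0.0439 and 0.0266, beside 245 of all 955. DESeq2 called 104 of the 955 miRNAs in this comparison and 0 of the members. Without knockout 1, edgeR called 48 of 1001 miRNAs, 44 of them higher, and again 0 members. Those same 2 members lay below the controls in all 3 knockout libraries, which 15.6% of all miRNAs also did.

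Knockout 3, in which every member but miR-182-5p was at its lowest of the 9 libraries, carried much of the difference. Without it the log2 fold changes were -0.55 for miR-183-5p, -0.36 for miR-183-3p, -0.50 for miR-96-5p and -0.47 for miR-182-5p. Leaving out control 1 instead gave -0.55, -0.41, -0.52 and -0.60 for the same members in that order.

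**Figure D2:**
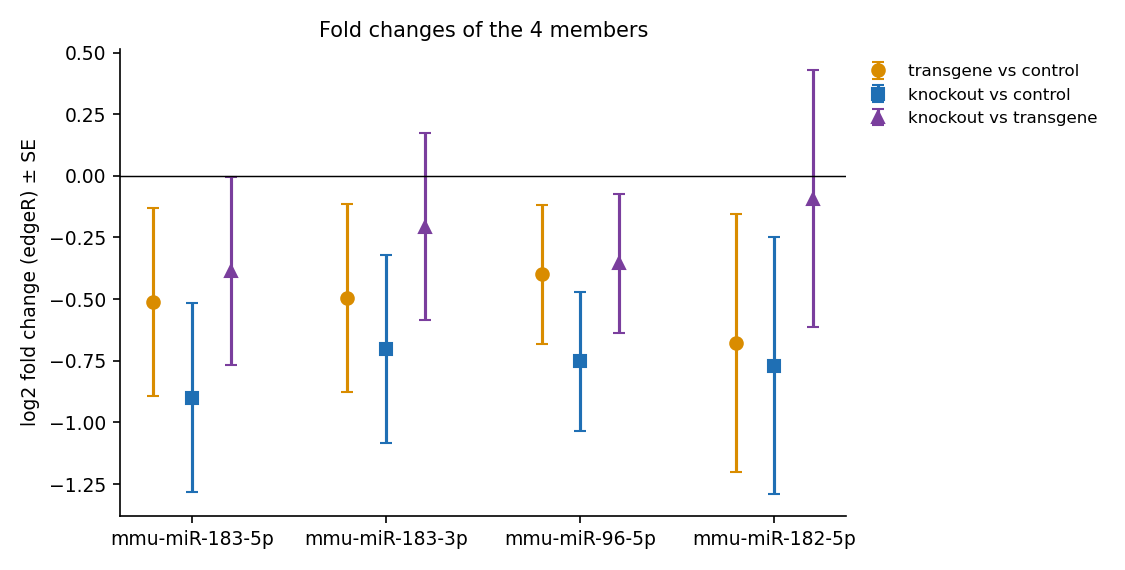
Log2 fold change of each member from the edgeR fit (vertical axis, with 0 as the line of no difference) in the 3 comparisons, with bars of 1 SE. All 8 values against controls are negative, from -0.40 to -0.90, and none passed after adjustment.

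Between knockout and transgene kidneys the members differed by less than 1 SE or little more. The log2 fold changes were -0.39 (SE 0.38) for miR-183-5p, -0.21 (SE 0.38) for miR-183-3p, -0.35 (SE 0.28) for miR-96-5p and -0.09 (SE 0.52) for miR-182-5p, with edgeR adjusted p-values of 0.722 to 0.945. The median was -0.28, beside 0.05 over all miRNAs. Of the members 0 were called, where 0.105% of all miRNAs were called, 0 had an unadjusted p under 0.05, beside 67 of all 955, and DESeq2 called 3 miRNAs, none of them a member. No member lay lower in all 3 knockout than in all 3 transgene libraries, as 5.97% of all miRNAs did. Both DROSHA groups were set against the same 3 controls, so the 2 comparisons with controls are not independent of each other.

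The absence of overlap depended on the scaling. With each library scaled to its total of miRNA reads, or of all counted reads, the groups overlapped for every member in all 3 comparisons. Scaling to miRNA totals placed the median of all miRNAs at 0.18 for the transgene and 0.19 for the knockout, and all counted reads placed it at 0.12 and 0.09. Factors taken from miRNAs processed without DROSHA placed it at -0.0048 and -0.17, with members at -0.37 to -0.62 for the transgene and -0.75 to -1.02 for the knockout. Those factors rest on 7 tested names. Their list of 8 names summed to 5903, 3465 and 2984 CPM in knockouts 1, 2 and 3, beside 3107 to 3761 CPM in controls. Under miRNA totals the members had log2 fold changes of -0.18 to -0.49 with the transgene and -0.49 to -0.68 in the knockout. Relative to the median of all miRNAs these were -0.36 to -0.67 and -0.68 to -0.87, close to the -0.36 to -0.64 and -0.68 to -0.87 with TMM.

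Ratios within a library do not depend on scaling, and they show how the members stand to each other. miR-183-5p had 47.3 to 74.4 reads for each read of miR-183-3p over the 9 libraries. The log2 of this guide to passenger ratio was 6.03 ± 0.22 in controls, 6.01 ± 0.14 with the transgene and 5.84 ± 0.31 in the knockout (SD, n = 3 each). The group means differed by -0.03 for the transgene against controls, by -0.19 for the knockout against controls and by -0.17 between the DROSHA groups, with exact two-sided permutation p-values of 0.9, 0.4 and 0.5. None of these differences was larger than the SD of the knockout libraries.

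The log2 ratio of miR-96-5p to miR-183-5p was -1.85 ± 0.16 in controls, -1.73 ± 0.44 with the transgene and -1.69 ± 0.28 in the knockout (SD, n = 3 each). Exact permutation p-values for the 3 comparisons were 0.7, 0.5 and 0.9. The log2 ratio of miR-182-5p to miR-183-5p was -0.02 ± 0.22 in controls, -0.42 ± 0.78 with the transgene and 0.03 ± 0.49 in the knockout, with exact permutation p-values of 0.6, 0.9 and 0.6. With 3 libraries against 3 the smallest p these exact tests allow is 0.1, and after Benjamini-Hochberg adjustment over the 9 tests every exact permutation p was 0.9.

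**Figure D3:**
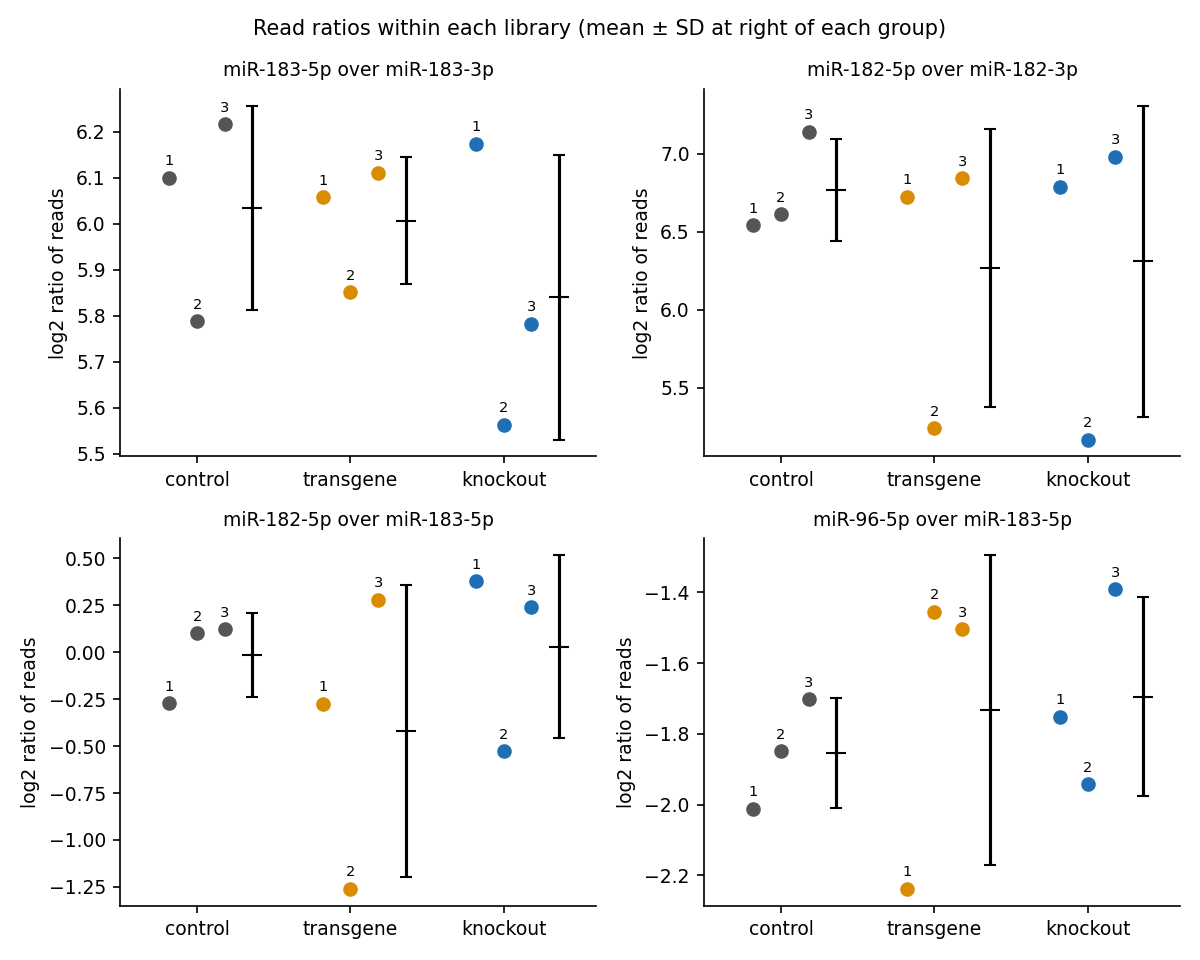
Log2 ratio of reads between members, or between arms, within each library (vertical axes, which do not start at 0) for the 3 groups, with numbered libraries as points and mean ± SD of 3 libraries as bars. The ratio of miR-182-5p to miR-182-3p is low in transgene 2 and knockout 2, and knockout 2 is also the lowest library for the arms of Mir183, by a smaller margin.

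Mir182 stood apart in 2 libraries that belong to different groups. miR-182-5p had 0.828, 1.07 and 1.09 reads per read of miR-183-5p in the controls, 0.826, 0.417 and 1.21 in the transgene libraries and 1.30, 0.694 and 1.18 in the knockout libraries. Transgene 2 and knockout 2 were the lowest of the 9. This pattern was chosen after its values were seen and is given without a test.

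The passenger arm of the same hairpin did not show it. miR-182-3p was at 38.0, 25.2 and 17.7 CPM in controls, 21.5, 16.0 and 21.3 CPM with the transgene and 23.9, 34.2 and 8.83 CPM in the knockout. Knockout 2, where the guide was low, thus had the highest miR-182-3p of its group. There were 93.1, 97.9 and 141 reads of miR-182-5p per read of miR-182-3p in controls, 106, 37.8 and 115 with the transgene and 110, 35.9 and 126 in the knockout. Both arms are printed here to show that they are distinct sequences, with seeds in capitals.
mmu-miR-182-5p: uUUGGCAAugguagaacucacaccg
mmu-miR-182-3p: gUGGUUCUagacuugccaacu
Against the median of the other 7 libraries, the log2 ratio of the arms was shifted by -1.55 in transgene 2 and by -1.62 in knockout 2, while those 7 spanned 0.60. For the arms of Mir183 the same shifts were -0.25 and -0.54, while the other 7 spanned 0.43, and knockout 2 was the lowest library. Of 129 hairpins with at least 100 reads of each arm in every library, Mir182 had the lowest mean of the 2 shifts. Larger falls in 1 of the 2 libraries occurred elsewhere. They were -2.54 for miR-199a and -1.81 for miR-154 in transgene 2. In knockout 2 they were -2.51 for miR-744, -2.35 for miR-423 and -1.67 for miR-30e. The arm ratios of miR-27b and miR-15a also lay below the other 7 in both libraries. Since the 2 libraries were picked for their low miR-182-5p, these shifts are descriptions.

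Without transgene 2 and knockout 2, an alternative chosen after the data were seen, the log2 fold change of miR-182-5p against controls was -0.19 for the transgene and -0.56 for the knockout. That of miR-183-5p was -0.24 and -0.96. The summed cluster was then at 5419 CPM in the 2 transgene and 3877 CPM in the 2 knockout libraries left, beside 6642 CPM in controls. The log2 ratio of miR-182-5p to miR-183-5p averaged 0.0012 and 0.31 in those libraries. miR-182-5p still lay below all controls with the transgene, as 15.2% of all miRNAs did. In the knockout 3 members (miR-183-5p, miR-183-3p and miR-96-5p) lay below all controls, as 20.8% of all miRNAs did. Over all 9 libraries the log2 CPM of miR-183-5p correlated with that of miR-183-3p at r = 0.93, with miR-96-5p at 0.90 and with miR-182-5p at 0.77, and the last was 0.93 over the 7 libraries left without these 2. For the arms of Mir182 the correlation was 0.51 over 9 libraries and 0.96 over 7. These correlations are descriptions, since the libraries share the group structure and the scaling. The 2 libraries were picked for their low miR-182-5p, so the higher correlations of miR-182-5p without them follow from that choice.

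The files also count reads under Rfam families, in rows separate from the mature miRNAs. The sources used here do not say which reads of a hairpin went to the family row. The mir-182 family had 12.5, 10.9 and 12.8 reads per 100 reads of mature miR-182-5p and miR-182-3p in controls, 11.7, 6.89 and 8.22 with the transgene and 8.57, 4.85 and 14.6 in the knockout. Transgene 2 and knockout 2 were again the lowest, with 1396 and 1507 family reads, beside 4544 to 14253 in the other 7 libraries. The cause of the low values was not tested.

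In the other families of the cluster these 2 libraries did not stand together. The mir-183 family had 7.09 to 10.4 reads per 100 mature reads, with means of 8.33 ± 1.13 in controls, 8.62 ± 0.254 with the transgene and 9.77 ± 0.683 in the knockout (SD, n = 3 each). The mir-96 family had 2.99 to 4.80, with means of 4.32 ± 0.156, 3.86 ± 0.909 and 3.92 ± 0.707. No test was run on the family rows.

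**Figure D4:**
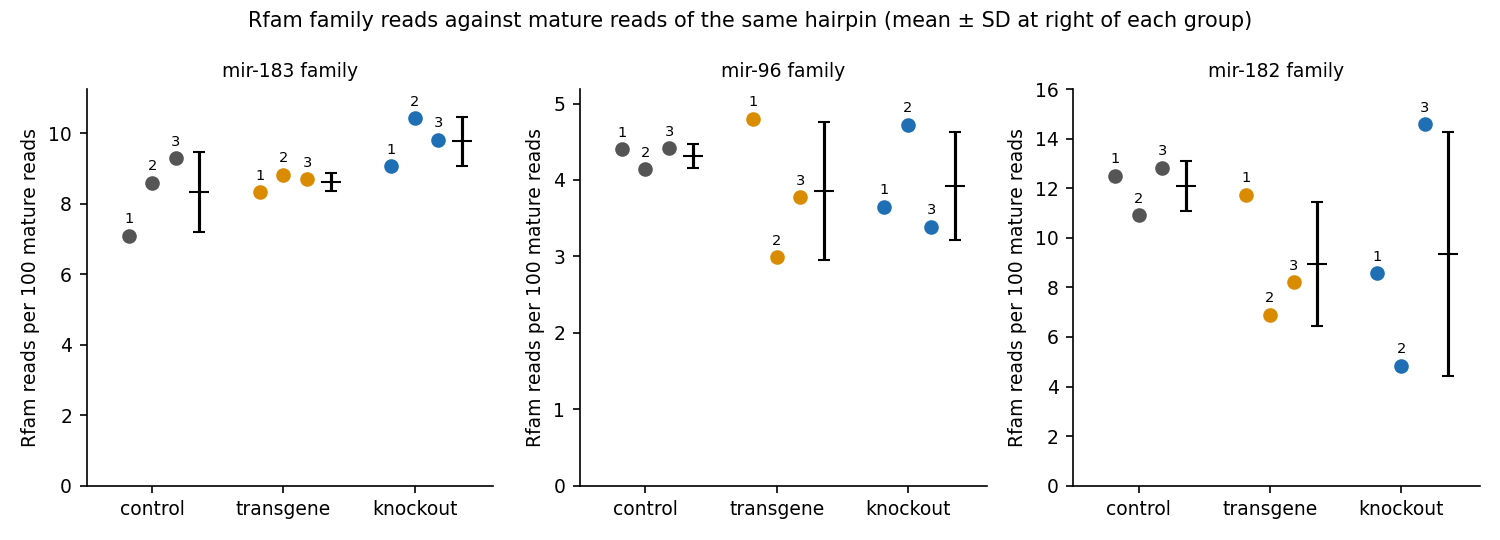
Reads in the Rfam family row per 100 mature reads of the same hairpin (vertical axes, from 0) for the families mir-183, mir-96 and mir-182, with numbered libraries as points and mean ± SD of 3 libraries as bars. In the mir-182 family, transgene 2 (6.89) and knockout 2 (4.85) are the lowest libraries.

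The remaining arm, miR-96-3p, was almost absent, with 7 to 27 reads per library. The ratio of miR-96-5p to miR-96-3p went from 454 to 1741 and is set by those few reads, so that no difference between groups could be read from it at this depth.

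miRNAs whose levels followed the cluster from library to library were sought among the 461 with a mean of at least 10 CPM, by the correlation of their log2 CPM with the mean log2 CPM of the 4 members over the 9 libraries. The closest were let-7f-2-3p (r = 0.95), miR-10a-3p (0.90), miR-26a-2-3p (0.90), miR-340-3p (0.89) and miR-17-3p (0.89). All 5 are 3p arms of hairpins outside the cluster. Without control 1 and knockout 3, the libraries farthest from the median of the cluster's mean, the correlations were 0.84, 0.76, 0.72, 0.76 and 0.75 in that order. Without transgene 2 and knockout 2 they were 0.98, 0.93, 0.90, 0.86 and 0.91, and of the 5 only let-7f-2-3p, still the closest of the 461, remained among the first 5.

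The miR-200 family, which keeps epithelial cells in their epithelial state and is abundant in the ureteric bud and tubules, followed the cluster in part. miR-200a-3p stood 7th of 461 with r = 0.87 and miR-200b-3p 11th with r = 0.85, while miR-200c-3p and miR-141-3p, from the family's other genomic cluster, had r = 0.21 and 0.27. Of the other names, miR-429-3p had 0.84, miR-200a-5p 0.74, miR-200b-5p 0.49 and miR-141-5p 0.21. Without control 1 and knockout 3, miR-200a-3p had 0.77, miR-200b-3p 0.59, miR-200b-5p -0.12, miR-200c-3p 0.38 and miR-141-3p 0.20. Deviations from group means correlated at 0.77 for miR-200a-3p, 0.73 for miR-200b-3p, 0.55 for miR-200c-3p and 0.23 for miR-141-3p. Summed over its 9 names, the family was at 35970 to 40670 CPM in controls, 22530 to 34423 CPM with the transgene and 13036 to 30756 CPM in the knockout, lowest in knockout 3. None of the 9 was called, 6 had negative log2 fold changes for the transgene (median -0.12) and 7 for the knockout (median -0.57). Per 100 CPM of the miR-200 family the cluster had 17.3 ± 4.11 in controls, 15.4 ± 3.34 with the transgene and 16.1 ± 4.05 in the knockout (SD, n = 3 each), values that differ by less than their spread. Without transgene 2 and knockout 2 the means were 17.2 with the transgene and 18.4 in the knockout (n = 2 each).

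**Figure D5:**
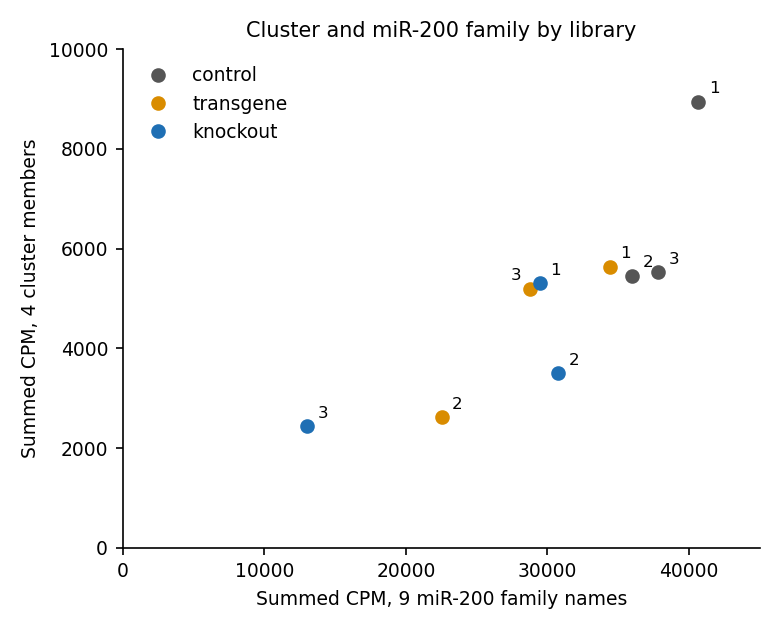
Summed CPM of the 4 cluster members (vertical axis) against summed CPM of 9 miR-200 family names (horizontal axis) in each of the 9 numbered libraries, coloured by group. Control 1 is highest on both axes, at 8946 and 40670 CPM, and knockout 3 is lowest on both, at 2446 and 13036 CPM.

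Tubule markers had lower means than controls in both DROSHA groups, as the cluster did, and muscle and erythroid markers had higher ones. The tubule list (miR-192-5p, miR-194-5p, miR-204-5p and others) was lower in the means of 6 of 6 names for the transgene, with a median log2 fold change of -0.60, and of 6 of 6 for the knockout, with a median of -1.17, and 0 of the 6 were called. Its summed level was 5874 to 9297 CPM in controls, 4272 to 4990 CPM with the transgene and 3007 to 3606 CPM in the knockout, lowest in knockout 3. Of the 6 names, 3 lay below all controls in every transgene library, as 12.0% of all miRNAs did. In every knockout library 6 did, as 15.6% of all miRNAs did. These counts used TMM, and with miRNA totals the shares of all miRNAs were 4.19% and 8.27%. The striated muscle list, from a tissue outside the kidney, had positive values for 6 of 6 names in both comparisons with controls, with 0 called. Its summed level was 221 to 1254 CPM in controls, 468 to 1641 CPM with the transgene and 458 to 10513 CPM in the knockout, the last value in knockout 3. The erythroid list, with 4 of 4 names positive in both comparisons and 0 called, was at 21371 to 52280 CPM in controls, 27202 to 79986 CPM with the transgene and 71656 to 112183 CPM in the knockout, again highest in knockout 3. No name of these 3 lists or of the miR-200 family was at 0 in any library, so that kidney tubule markers were present in all 9.

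Neural and pancreatic lists were taken beside these. The 8 neural names summed to 2291 to 4658 CPM in controls, 2313 to 3755 CPM with the transgene and 2435 to 4344 CPM in the knockout, ranges that overlap, with 0 called. By name, 3 were higher and 5 lower for the transgene (median log2 fold change -0.05), and 6 were higher and 2 lower for the knockout (median 0.53), among the latter the abundant miR-9-5p at -0.66 (SE 0.39). The pancreatic list of 7 names, 6 of them tested and 0 called, was at 1484 to 2512 CPM in controls, 7388 to 12033 CPM with the transgene and 1679 to 20452 CPM in the knockout, with names that split in direction. Of the 6 tested, 4 were higher and 2 lower for the transgene (median log2 fold change 2.42) and 3 were higher and 3 lower for the knockout (median 0.78). The part of these cells, and of tubule, muscle and erythroid cells, in the members' levels was not tested.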

How the data were processed

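Members and marker lists were chosen with earlier results of these data known. The deposited count column holds the authors' whole-number read counts for each small RNA, per the file headers. The deposited TPM column is, by its values, the count per 1000000 reads of the authors' total, with a largest gap of 0.005, and was not tested. CASAVA 1.8, Bowtie2 and the build mm10 appear, without roles, in the submitters' processing notes. How reads matching several names were placed is not stated in these sources. Samples were grouped by title and genotype.

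Counts of all known mouse miRNAs, with mature and hairpin rows of 1 name added (the members have 0 hairpin rows), were fitted with edgeR 4.0.16 in R 4.3.3 over all 9 libraries. TMM (factors 0.882 to 1.13), filterByExpr and the quasi-likelihood F test were used, with Benjamini-Hochberg adjustment over 955 miRNAs and a threshold of 0.05. DESeq2 1.42.0 was an alternative. The steps were tested on simulated data. For knockout against control, edgeR called 15.9% of simulated 2-fold changes, 67.1% of 4-fold changes and 0.536% of unchanged miRNAs. The absence of a call at a fold near 2 therefore does not show that a member was unchanged. Log2 ratios used raw counts with a pseudocount of 1 and exact two-sided permutation tests (scipy 1.17.1). Correlations used log2 CPM with a prior count of 2.

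All 4 members are named, with the other arms of their hairpins, miRNAs sharing a seed, up to 3 names a list and the 5 closest in correlation. Of 13 lists, those not described in the report are given at the end. Sequences and loci are from RefSeq, build GRCm38.p6. Alternatives were other scalings, DESeq2, no low-count filter, only the groups compared, mature rows only, a pseudocount of 0.5, the replicate number as a block and leaving out each library. Reads carry no molecular identifiers, and depth gave every member at least 475 reads in a library.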

Additional observations from a re-analysis of the deposited data

How the results depend on the processing

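Of the 4 members 0 were called in each comparison under all 19 alternatives, with edgeR or DESeq2, while calls among all 955 miRNAs went from 0, 0 and 1 with edgeR to 4, 104 and 3 with DESeq2 (transgene against control, knockout against control, knockout against transgene). Without knockout 1, edgeR called 48 of 1001 miRNAs in knockout against control. All members kept negative log2 fold changes against controls, from -0.93 to -0.18 for the transgene and from -1.23 to -0.36 for the knockout. Between knockout and transgene, leaving out 1 library at a time changed the sign of mmu-miR-183-3p (-0.49 to 0.072) and mmu-miR-182-5p (-0.62 to 0.19). Among the log2 ratios it changed the sign of miR-183-5p over miR-183-3p, transgene against control (-0.15 to 0.063), miR-182-5p over miR-183-5p, transgene against control (-0.75 to 0.017) and knockout against control (-0.13 to 0.32), and miR-96-5p over miR-183-5p, transgene against control (-0.017 to 0.37) and knockout against transgene (-0.21 to 0.18). The cause of these changes was not tested.

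Labels give the groups the same replicate numbers, but same-numbered libraries did not deviate together (r from -0.302 to 0.102, over 0.1 in 1 of 9 pairs, and 0 libraries correlated best with their own number). With the replicate block, miR-183-5p had log2 fold changes of -0.48 for the transgene and -0.88 for the knockout, miR-182-5p of -0.82 and -0.85, and 0 members were called.

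With 475 to 1985 reads, counting error is small even for miR-183-3p, so the spread between 3 libraries a group sets the precision.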

Other observations

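Marker lists not described above had 0 calls in each comparison by edgeR. Median log2 fold changes for the transgene and the knockout against controls were -0.42 and 0.62 for 2 names of stratified epithelium, 0.30 and 0.55 for 5 leukocyte names, -0.02 and 0.44 for 5 names of stroma and smooth muscle, -0.05 and -0.07 for 2 endothelial names, and -0.01 and 0.34 for 7 tested names of hairpins processed without DROSHA. The liver marker miR-122-5p had 0.69 and -0.65. miR-203-3p and miR-205-5p, miRNAs of stratified epithelium, were at 505 ± 25.7 and 256 ± 38.1 CPM in controls, 375 ± 30.6 and 191 ± 35.9 CPM with the transgene and 664 ± 122 and 461 ± 126 CPM in the knockout (SD, n = 3 each). Both lay above all controls in every knockout library, as 12.9% of all 955 miRNAs did, and below all controls in every transgene library, as 12.0% did. For miR-205-5p the highest transgene library, at 213.6 CPM, was barely below the lowest control, at 214.2 CPM. With libraries scaled to miRNA totals, 4.19% of all miRNAs lay below all controls in every transgene library.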
